A study of Homo sapiens with 13 samples.

Results

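The collagen genes were taken as every protein-coding gene whose symbol in the deposited tables reads COL, a number, the letter A and a number. This gave 43 genes, of 60500 genes in the count table of a doxycycline set of libraries and 60554 in that of an FGF2 set. All 43 are named in the symbol table of the first set and 25 in the symbol tables of the second, where the rest were read by their gene identifiers. COL6A5 has a symbol of the same form but is named in neither, is no member and had 0 to 6 counts per library. By role the members are 11 fibrillar collagens, 6 genes of the basement membrane network, 10 FACITs (fibril-associated collagens), 2 multiplexins, 4 transmembrane collagens, 4 genes of the beaded filaments of collagen VI, 3 short chain collagens, and COL7A1, COL26A1 and COL28A1.

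All 13 libraries came from H9 human embryonic stem cells, an established line, carrying a stable copy of NEUROG2, a proneural transcription factor, that doxycycline switches on. Each library was made from polyadenylated RNA of 1 culture well on Matrigel, and the labels describe the induced cells as excitatory neurons. The doxycycline set has 1 library in each of 5 groups, namely day 0, and days 5 and 11 without doxycycline (control) or with 1 µg/ml of it throughout. The FGF2 set has 2 libraries in each of 4 groups, and all of its cultures had doxycycline for the first 6 days. Its day 6 groups were without FGF2 or with 20 µg/ml of it from the start (early FGF2). Its day 12 groups then spent 6 more days without doxycycline, either without FGF2 or with 20 µg/ml of it in that period (late FGF2). After day 0 every culture had 2 days in stem cell medium (mTesrE8) and then 3N medium. The titles call the cells hES-N1 in the doxycycline set and hES-N2G1 (replicate 1) or hES-N2G2 (replicate 2) in the FGF2 set, while the source field reads hES-N1 for all. The labels do not say what these names mark, whether the cells are 1 clone, or whether the libraries of a group are separate inductions, so p-values measure the spread between these libraries, which may be technical. Doxycycline was never given to cells lacking the inducible gene, so the agent and NEUROG2 cannot be told apart. The sets share no group and were sequenced in separate runs, so levels are set side by side across them and not tested, and a difference between them cannot be told apart from one of run or cell name.

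Collagens are matrix proteins whose chains wind into a helix of several chains, and many chains need partners from other genes. COL4A1 pairs with COL4A2 in the common network of basement membranes, and COL6A1 joins COL6A2 and a further chain such as COL6A3 in collagen VI. Fibrillar collagens build the fibrils of connective tissue, FACITs decorate them, multiplexins lie in basement membranes and transmembrane collagens sit on the cell surface. In the nervous system collagens are known mainly from basement membranes, meninges and vessels, and some are made by neurons.

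Between 28443657 and 47159475 reads were counted per library of the doxycycline set, and between 22802501 and 30014661 per library of the FGF2 set. Levels below are CPM, counts per 1000000 counts of a library size scaled by TMM. The 8 neuron markers summed to 38.4 to 85.3 CPM in the libraries without doxycycline and to at least 9063 CPM in every library given it. NEUROG2 was at 0.456 to 6.26 CPM without doxycycline, at 1564 CPM on day 5 and 1018 CPM on day 11 with it, at 7544 to 7831 CPM on day 6 and at 49.3 to 54.7 CPM on day 12. The libraries of day 6 FGF2 stood further apart than those of the other FGF2 set groups, since a chi-square test of their counts gave 19.0 per degree of freedom, where the other 3 groups gave 2.87 to 3.26.

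Collagen reads took 0.194% of all counts at day 0, 0.413% in the day 5 control and 0.305% in the day 11 control. With doxycycline they took 0.0661% on day 5 and 0.0659% on day 11. In the FGF2 set they took 0.0950% to 0.105% on day 6 and 0.0512% to 0.0565% on day 12. Shares were thus lower in every library given doxycycline than in every library without it. Of the 43 members, 23 reached a mean of 20 CPM in at least 1 group, 12 reached 5 CPM but not 20, and 8 stayed under 5 CPM. Those 8 were COL3A1, COL8A1, COL10A1, COL15A1, COL19A1, COL20A1, COL24A1 and COL28A1, with highest group means of 0.499 to 4.12 CPM.

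**Figure D1:**
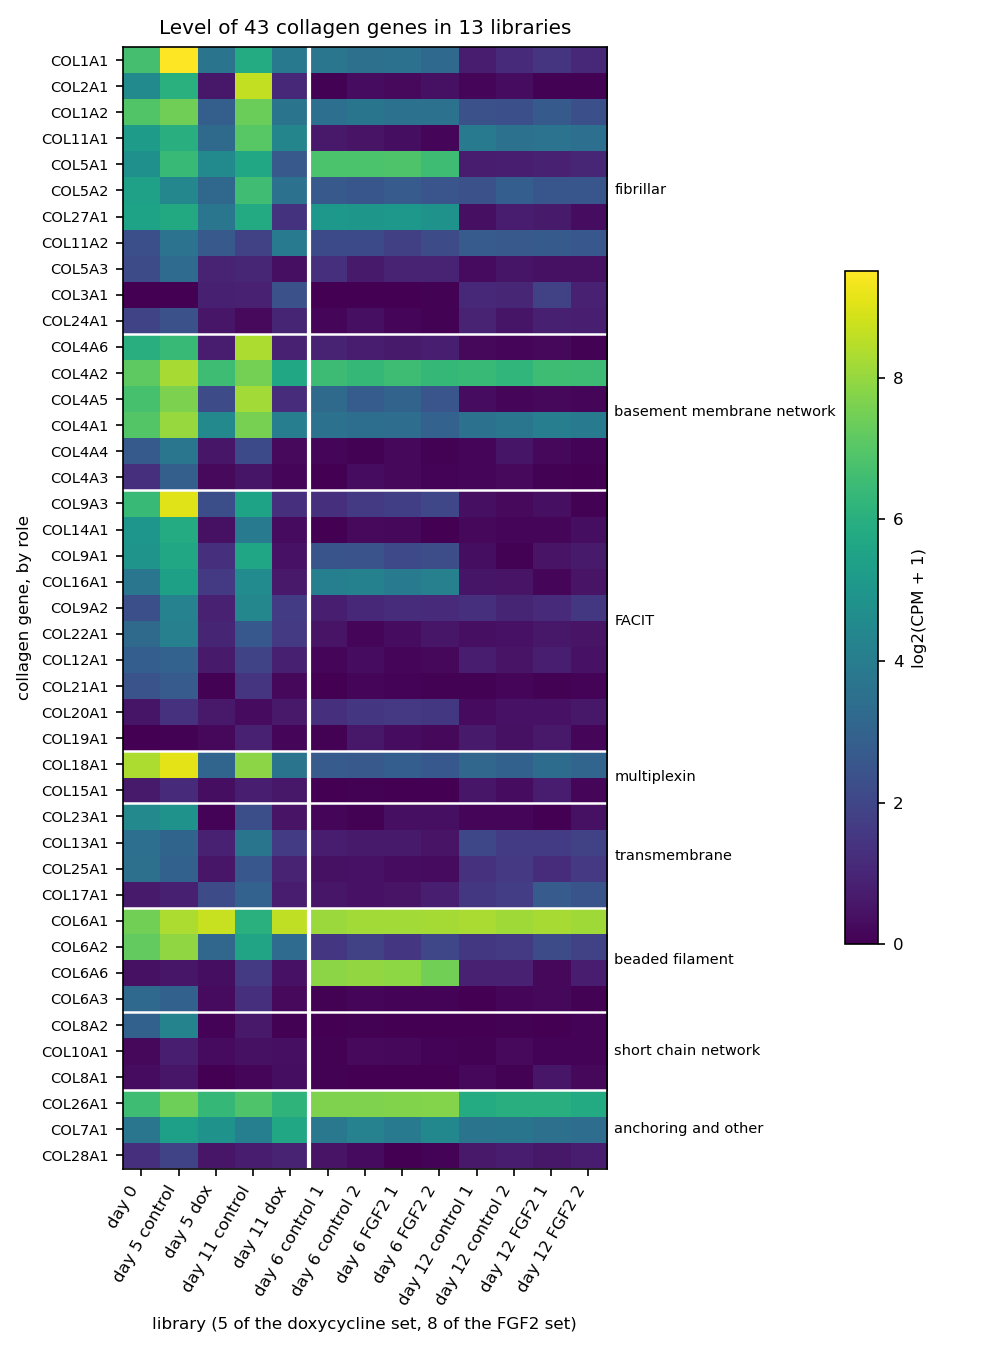
Level of each of the 43 collagen genes (rows, by role) in each of the 13 libraries (columns) as log2(CPM + 1). The white vertical line parts the doxycycline set from the FGF2 set. COL6A1, COL26A1 and COL4A2 stayed at 51.2 CPM or more in every library, while most other rows were brightest in the day 0, day 5 control and day 11 control columns.

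Levels of different genes were compared per kilobase of exon. Without doxycycline no member led by far: COL18A1, a multiplexin, made up 15.4% of the summed collagen level per kilobase at day 0, COL9A3, a FACIT chain of cartilage, 19.4% in the day 5 control, and COL2A1, the main fibrillar collagen of cartilage, 19.1% in the day 11 control. With doxycycline COL6A1 alone made up 62.3% on day 5 and 61.2% on day 11, followed by COL26A1, a small secreted collagen, with 20.1% and 19.0%. On day 12 of the FGF2 set COL6A1 again led, with 61.9% to 65.0% in the 4 libraries, and COL26A1 followed with 20.2% to 23.3%. On day 6 COL26A1 held 37.7% to 40.1%, COL6A1 30.03% to 33.6% and COL6A6 11.0% to 14.8%. With the length of the principal transcript in place of all exons of a gene, COL6A1 came first in 2 of the 4 day 6 libraries, so the order of these members there was not settled.

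**Figure D2:**
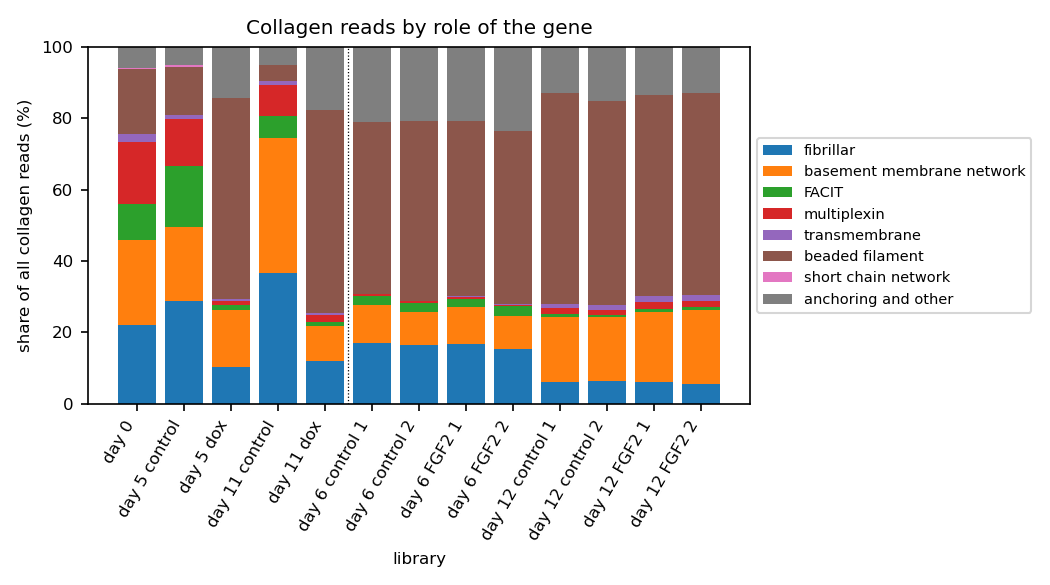
Share of all collagen reads (%) taken by the genes of each role, 1 stacked bar per library. The beaded filament genes took 4.39% to 18.3% in the 3 libraries without doxycycline and 48.2% to 59.0% in the other 10. FACITs and multiplexins each took a larger share in every library without doxycycline than in any other.

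The first question was how collagen genes differed between cultures with and without doxycycline at the same age. Most members counted were far lower with doxycycline, but for many of them the limit used fixed that direction. A member could be counted through a high level in either library, as could any gene. Only 13 members reached the limit of 10 CPM in the day 5 or day 11 library with doxycycline. On day 5 those at the limit were COL1A1, COL4A1, COL4A2, COL5A1, COL6A1, COL7A1, COL26A1 and COL27A1. On day 11 they were COL1A1, COL1A2, COL4A1, COL4A2, COL5A2, COL6A1, COL7A1, COL11A1, COL11A2, COL18A1 and COL26A1. On each day any other member counted passed through the control alone, so that its direction, lower with doxycycline, was fixed by that limit. COL11A2 on day 11 passed through the library with doxycycline alone, which fixed it as higher. Of the 26 members at 10 CPM or more in either day 5 library, 19 were at least 4-fold lower and 0 at least 4-fold higher, where 11.5% of all 12895 genes at that level were lower, 12.6% higher and 24.1% either. On day 11 these were 18 lower and 2 higher of 23 members, where 9.85% of 12655 genes were lower, 11.5% higher and 21.4% either. The median log2 ratio of the members was -3.66 on day 5 and -3.02 on day 11, against 0.23 and 0.16 for all genes, each with 1 CPM added to both values. There were 15 members at least 4-fold lower on both days. These counts and medians include the fixed members and are a description. Of the members not fixed, COL1A1, COL4A1 and COL27A1 were at least 4-fold lower on day 5. On day 11 COL1A1, COL1A2, COL4A1, COL5A2, COL11A1 and COL18A1 were, and COL6A1 was at least 4-fold higher. Scaling by library totals left 1 member at least 4-fold higher on day 11, COL6A1, with COL11A2 under that limit. Each group is 1 library, so these ratios have no replicate check, and intervals given with them are exact binomial and cover counting error only. Fewer cells of a type and less RNA per cell cannot be told apart in bulk RNA.

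**Figure D3:**
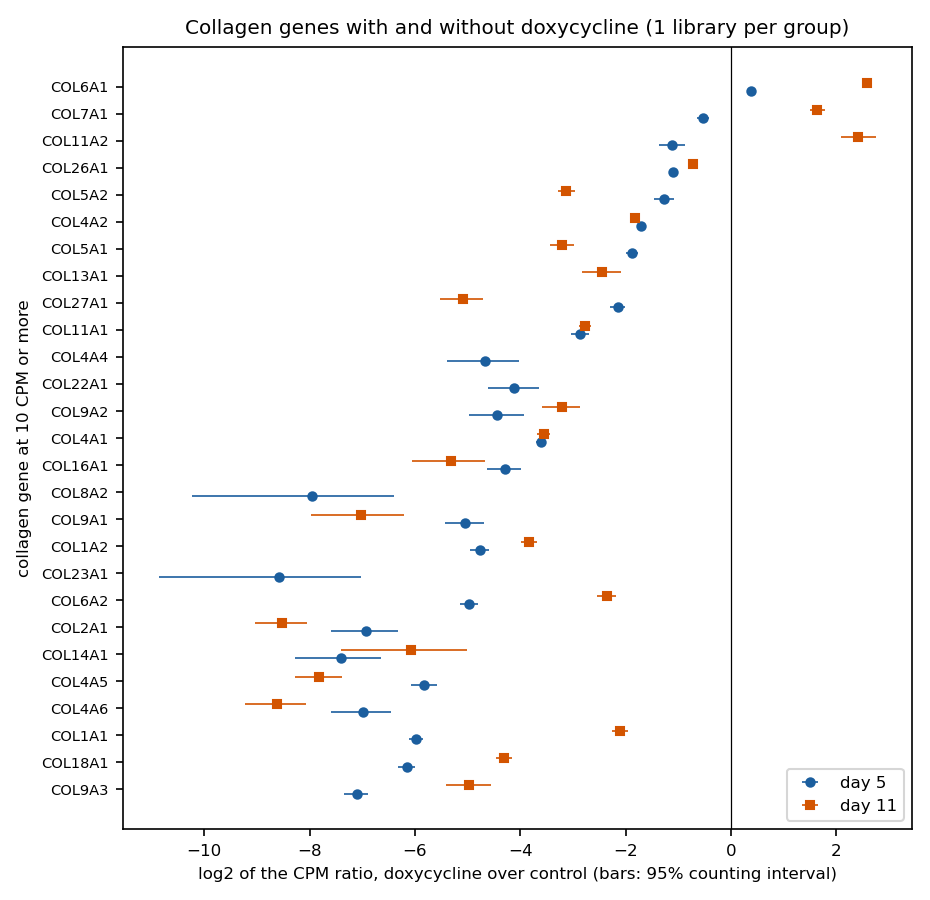
Ratio of the level with doxycycline to that without it (log2 of the CPM ratio, nothing added) for each member at 10 CPM or more on day 5 (circles) or day 11 (squares). Bars are 95% counting intervals. COL6A1 lies right of 0 on both days, COL7A1 and COL11A2 on day 11 alone, and all others left of 0.

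Of the fibrillar collagens, 5 of 8 members on day 5 and 7 of 8 on day 11 were at least 4-fold lower, and 1 was at least 4-fold higher on day 11. COL1A2, COL2A1, COL5A2, COL11A1 and COL11A2 on day 5 passed 10 CPM through the control alone. So did COL2A1, COL5A1 and COL27A1 on day 11, and for all of these the lower direction was fixed. COL11A2 on day 11 passed through the library with doxycycline alone, so its higher direction was fixed. COL1A1, a chain of the collagen of skin and bone, was at 102 CPM at day 0 and at 726 CPM in the day 5 control, against 11.5 CPM with doxycycline on day 5, 63.4-fold lower (57.9 to 69.6). By day 11 the control was at 57.0 CPM and the culture with doxycycline at 13.3 CPM. Its partner chain COL1A2 was at 120.0, 173 and 165 CPM at day 0 and in the day 5 and day 11 controls, and at 6.33 and 11.5 CPM with doxycycline. Every one of these libraries with doxycycline thus lay below every one without it for both chains. How many of all genes did so was not counted. COL2A1 was at 22.3 CPM at day 0, 64.7 CPM in the day 5 control and 401 CPM in the day 11 control. With doxycycline it was at 0.532 CPM on day 5 and 1.09 CPM on day 11, 368-fold lower there (266 to 525).

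For the other fibrillar chains at 10 CPM, COL11A2 aside, the ratios ran from 2.42-fold lower (COL5A2) to 7.30-fold lower (COL11A1) on day 5, and on day 11 from 6.83-fold (COL11A1) to 34.2-fold lower (COL27A1). COL5A1, which regulates fibril width, was at 26.1, 83.1 and 49.4 CPM at day 0 and in the day 5 and 11 controls and at 22.6 and 5.36 CPM with doxycycline, 3.68-fold lower on day 5 (3.41 to 3.97) and 9.22-fold lower on day 11 (7.89 to 10.8). Its partner COL5A2 was at 42.0, 20.1 and 96.2 CPM without and at 8.32 and 11.0 CPM with doxycycline. COL27A1, a fibrillar collagen of cartilage, was at 44.9, 53.9 and 54.9 CPM without and at 12.2 and 1.61 CPM with it. In each of these 3 chains the day 11 value with doxycycline lay below all 3 values without it, which was not counted over all genes. COL11A1, a cartilage fibril chain, was at 36.5, 63.2 and 130.1 CPM without and at 8.65 and 19.1 CPM with doxycycline. Its partner COL11A2 went another way, with 3.98, 11.3 and 2.71 CPM without and 5.22 and 14.4 CPM with it, a ratio of 5.32 (4.24 to 6.74) on day 11. The limit of 10 CPM fixed its direction on each day. COL5A3, a further partner of COL5A1, reached at most 8.89 CPM in any group.

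Genes of the basement membrane network lie in pairs. COL4A1 and COL4A2, COL4A3 and COL4A4, and COL4A5 and COL4A6 each lie head to head, with nearest RefSeq start sites 127, 419 and 380 bases apart. COL4A6 has a further RefSeq start site, at chrX:108438422, and which of its start sites was used is not known. COL4A5 was at 105 CPM at day 0, at 197 CPM in the day 5 control and at 293 CPM in the day 11 control, against 3.48 and 1.30 CPM with doxycycline. COL4A6 was at 61.5, 86.3 and 321 CPM and then at 0.677 and 0.818 CPM. The ratio with doxycycline was thus 56.7-fold (48.0 to 67.3) and 128-fold (88.0 to 192) lower on day 5, and 225-fold (167 to 311) and 392.3-fold (270 to 596) lower on day 11. COL4A1, a chain of the network of most basement membranes, was at 125, 260.3 and 186 CPM without and at 21.4 and 15.8 CPM with doxycycline, 12.2-fold lower on day 5. COL4A2 was at 142, 307 and 182 CPM and at 93.4 and 51.2 CPM, 3.28-fold lower on day 5 (3.16 to 3.41) and 3.56-fold lower on day 11 (3.37 to 3.76). Per kilobase the COL4A2 level was 0.748 to 0.900 times that of COL4A1 in the 3 libraries without doxycycline, 3.33 and 2.48 times it with doxycycline, and 4.49 to 8.82 times it in the 8 FGF2 set libraries. The COL4A5 level per kilobase was 0.714 to 1.79 times that of COL4A6 without doxycycline, 4.02 times it (2.67 to 6.27) on day 5 and 1.25 times it (0.753 to 2.10) on day 11 with doxycycline, and 4.89 to 8.91 times it on day 6. COL4A3 and COL4A4, the kidney chains, peaked in the day 5 control at 6.27 and 12.3 CPM and were at most at 0.484 CPM in every library given doxycycline.

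The stretch between COL4A6 and COL4A5 is shown because both genes were at least 4-fold lower with doxycycline on both days, although their ratio was not constant. Both reached 10 CPM in the controls alone, so the direction was fixed by that limit. It lies at chrX:108439588-108439837 on the plus strand (GRCh38.p14, RefSeq), 250 bases before the COL4A5 start, outside any exon. Capitals mark CCAAT on either strand.
COL4A5: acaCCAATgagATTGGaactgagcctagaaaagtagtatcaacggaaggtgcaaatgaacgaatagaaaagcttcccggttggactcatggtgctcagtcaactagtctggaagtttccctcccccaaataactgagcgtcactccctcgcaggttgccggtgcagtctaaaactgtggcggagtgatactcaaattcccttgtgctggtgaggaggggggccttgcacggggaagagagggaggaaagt
It holds CCAAT on each strand and neither CAGATG nor GGGCGG.

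Of the FACITs, 6 on day 5 and 5 on day 11 reached 10 CPM. In each case it was the control alone that did so, so a lower level with doxycycline was fixed by that limit, and their values are given as a description. The collagen IX chains COL9A1, COL9A2 and COL9A3 coat fibrils of cartilage. COL9A3 was at 84.4 CPM at day 0, 528 CPM in the day 5 control and 44.6 CPM in the day 11 control, and at 3.82 and 1.42 CPM with doxycycline, 138-fold (118 to 163) and 31.3-fold (23.4 to 42.8) lower. COL9A1 was at 29.3, 49.6 and 47.2 CPM and then at 1.499 and 0.364 CPM. COL9A2 was at 4.05, 17.8 and 20.2 CPM and then at 0.822 and 2.18 CPM. In all 3 chains the groups with and without doxycycline did not overlap, and the share of all genes separated this way was not counted. COL14A1, a FACIT of dense tissue, was at 30.9, 57.2 and 14.3 CPM without and at 0.338 and 0.212 CPM with doxycycline. COL16A1 was at 12.2, 41.0 and 22.95 CPM without and at 2.08 and 0.576 CPM with it. COL12A1, COL21A1 and COL22A1 peaked in the day 5 control, at 7.02, 5.64 and 16.8 CPM, and lay between 0.0484 and 2.03 CPM with doxycycline.

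COL18A1, whose C terminus gives endostatin, was at 319 CPM at day 0, 549 CPM in the day 5 control and 228 CPM in the day 11 control. With doxycycline it was at 7.69 and 11.5 CPM, 71.5-fold (63.9 to 80.1) and 19.9-fold (17.9 to 22.1) lower. It shares 16.4% of its exon bases with SLC19A1 on the other strand, and the library kit did not mark strand, so reads there cannot be told apart. Transmembrane collagens were low. COL23A1 was at 21.1, 27.8 and 3.92 CPM without doxycycline and had 3 counts on day 5 with it (384-fold lower, 131 to 1865). COL13A1 reached 12.1 CPM in the day 11 control and COL25A1 10.5 CPM at day 0, and with doxycycline both were at 0.484 to 2.21 CPM. COL17A1, a hemidesmosome protein of epithelia, was at 0.608, 0.779 and 7.02 CPM without and at 3.58 and 0.697 CPM with doxycycline, with no common direction. Among the short chain collagens COL8A2, of vessels and cornea, was highest in the day 5 control at 17.9 CPM and had 3 counts with doxycycline (247-fold lower, 84.2 to 1202).

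In collagen VI the partner chains came apart with doxycycline. COL6A1 was at 179, 318 and 64.9 CPM at day 0 and in the day 5 and day 11 controls, and at 416 and 389 CPM with doxycycline. COL6A2 was at 148, 245 and 46.1 CPM and then at 7.81 and 8.97 CPM. So both chains followed each other without doxycycline, whereas with it COL6A1 was 1.31-fold higher on day 5 (1.28 to 1.34) and 5.99-fold higher on day 11 (5.72 to 6.27) and COL6A2 31.4-fold (28.1 to 35.2) and 5.15-fold (4.54 to 5.85) lower. Per kilobase the COL6A1 level was 1.22, 1.31 and 1.42 times that of COL6A2 in the libraries without doxycycline. It was 53.8 times it (48.2 to 60.2) on day 5 and 43.7 times it (38.9 to 49.2) on day 11 with doxycycline. In the FGF2 set it was 89.7 to 162 times it in the 8 libraries. This ratio is taken within a library and does not depend on scaling. With principal transcript lengths it was 0.988 to 1.15 in the libraries without doxycycline. It was 35.4 to 131 in those given it, the day 12 ones after its withdrawal. COL6A3, the large partner of both, was at 8.41, 6.77 and 1.51 CPM without and at 0.218 and 0.182 CPM with doxycycline, and at 0 to 0.150 CPM in the FGF2 set. COL6A6, which can take its place, was at 0.290 to 2.08 CPM in all 5 libraries of the doxycycline set.

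**Figure D4:**
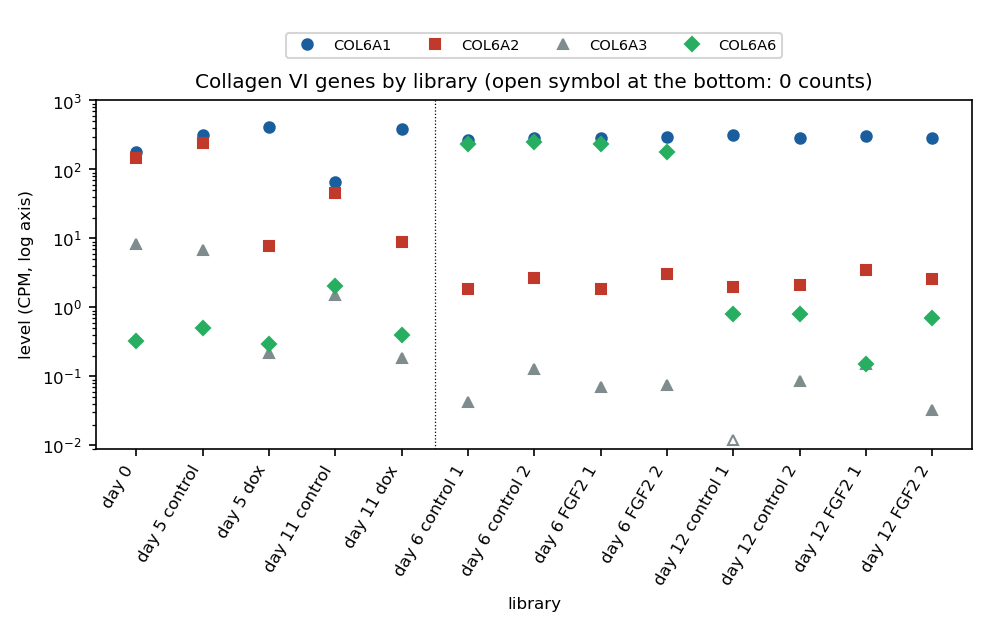
Level (CPM, log axis) of the collagen VI genes in each library, with the dotted line between the sets. COL6A1 and COL6A2 lie together in the 3 libraries without doxycycline and far apart in the other 10, and COL6A6 is high in the 4 day 6 libraries alone.

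The promoter of COL6A2 is shown because this gene left its partner, whose promoter is not in the table used. It lies at chr21:46097862-46098096 on the plus strand (GRCh38.p14, RefSeq), ending before the first exon, and capitals mark GGGCGG on either strand.
COL6A2: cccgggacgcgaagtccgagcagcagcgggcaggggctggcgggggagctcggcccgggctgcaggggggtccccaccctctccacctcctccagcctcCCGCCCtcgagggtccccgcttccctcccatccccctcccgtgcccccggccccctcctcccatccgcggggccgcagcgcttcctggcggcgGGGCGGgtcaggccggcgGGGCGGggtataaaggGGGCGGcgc
This window holds 4 GC boxes and neither CAGATG nor CCAAT.

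Of the remaining members, COL26A1 was at 93.4, 170.4 and 117 CPM without and at 79.3 and 71.4 CPM with doxycycline, 2.15-fold (2.06 to 2.24) and 1.64-fold (1.56 to 1.73) lower. COL7A1, of the fibrils that anchor skin epithelium, was at 12.3, 40.4 and 16.3 CPM without and at 28.04 and 50.5 CPM with doxycycline. Its ratio was 0.694 (0.640 to 0.751) on day 5 and 3.10 (2.81 to 3.42) on day 11. COL28A1 stayed at 2.84 CPM or less. COL3A1, a fibrillar collagen of vessels and skin, reached its highest level of the series, 4.12 CPM, on day 11 with doxycycline, and had 0 counts in the day 5 control.

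COL7A1 and COL10A1 are the only members among the 32 in the promoter table with the E-box CAGATG on either strand in the 300 bases around a start site. The COL7A1 promoter is shown for that match. It lies at chr3:48595330-48595579 on the minus strand (GRCh38.p14, RefSeq), and capitals mark CAGATG and GGGCGG on either strand.
COL7A1: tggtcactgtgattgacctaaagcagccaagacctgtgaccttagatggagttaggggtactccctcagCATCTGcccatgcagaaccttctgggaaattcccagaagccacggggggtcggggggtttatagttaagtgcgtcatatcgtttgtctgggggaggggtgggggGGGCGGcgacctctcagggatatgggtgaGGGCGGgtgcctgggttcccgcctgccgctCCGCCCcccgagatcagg
Over the 44 member windows, 9.09% held CAGATG, 54.5% GGGCGG and 31.8% CCAAT, against 14.7%, 45.0% and 34.6% of all 35116 windows of that length. The 3 motifs do not overlap each other. A match is a run of letters and was not tested as a binding site.

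Markers of other cells also differed, and not all lists were lower with doxycycline. Of all genes at 10 CPM or more 11.5% on day 5 and 9.85% on day 11 were at least 4-fold lower. A marker could pass that limit through the control alone, which fixed its direction as lower. In the day 5 or day 11 library with doxycycline, 3 pluripotency, 3 dividing cell and 3 neural progenitor markers reached it. So did 2 mesenchyme and fibroblast, 1 neural crest and 0 endothelial markers. For any other marker counted as lower below, the direction was fixed. On day 5 with doxycycline 6 of 7 pluripotency markers at 10 CPM or more were at least 4-fold lower, and their sum was 573 CPM in place of 3812. Of the 5 markers of dividing cells 5 were lower (58.1 in place of 1344 CPM), of 4 mesenchyme and fibroblast markers 2 (180 in place of 609 CPM), of 4 neural crest markers 3 (18.4 in place of 292 CPM), and of 2 endothelial markers 2 (7.11 in place of 243 CPM). On day 11 the sums were 202 in place of 1719, 23.3 in place of 1577, 154 in place of 485, 8.79 in place of 146 and 1.88 in place of 95.6 CPM. The fibroblast markers DCN and LUM were at most at 0.455 CPM in all 5 libraries, the neural crest regulator SOX10 had 0 counts in each, and the endoderm markers summed to at most 1.09 CPM. Other mesenchyme and neural crest markers were present. In the libraries without doxycycline 5 to 7 of 10 mesenchyme and fibroblast markers reached 1 CPM, and 4 of 7 neural crest markers did. Neural progenitor markers went another way, with a sum of 1183 CPM with doxycycline in place of 708 CPM on day 5. On day 11 that sum was 731 in place of 761 CPM. Of these markers at 10 CPM or more, 1 of 3 on day 5 and 2 of 4 on day 11 were at least 4-fold lower. The part of all these cells in the collagen ratios was not tested.

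Cultures without doxycycline also moved, with time and medium changing at once. On day 5 the summed collagen level was 4198 CPM against 1838 CPM at day 0, and 2 of 28 members, COL1A1 (7.13-fold, 6.89 to 7.37) and COL9A3 (6.25-fold, 6.03 to 6.49), were at least 4-fold higher and 0 lower, where 0.839% of all 11916 genes were higher, 0.21% lower and 1.05% either. On day 11, 3 of 24 members were at least 4-fold higher than at day 0 and 1 was lower, where 2.11% of all 11996 genes were higher, 2.46% lower and 4.57% either. COL2A1 was 18.0-fold (16.8 to 19.3), COL4A6 5.22-fold (4.99 to 5.46) and COL9A2 5.00-fold (4.198 to 5.97) higher, and COL23A1 5.38-fold (4.47 to 6.52) lower. On day 11 COL1A1 and COL9A3 were at 57.0 and 44.6 CPM, below their day 0 levels. The day 5 and day 11 ratios with doxycycline given above are therefore against controls that had themselves moved. Between day 5 and day 11 with doxycycline 1 of 13 members, COL27A1, was at least 4-fold lower (7.57-fold, 5.70 to 10.3) and 0 higher, where 1.22% of all 11465 genes were lower, 0.741% higher and 1.96% either. COL6A1 was at nearly the same level on both days (ratio 0.934, 0.912 to 0.955).

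The FGF2 set allows a test over time, between the controls of day 6 with doxycycline and of day 12 after its withdrawal. Collagen genes moved in both directions. Of the 33 members with enough counts to be tested, 9 rose and 13 fell by edgeR's quasi-likelihood test at an adjusted p under 0.05, where 31.7% of all 20142 genes rose, 32.3% fell and 64.0% did either. The members' share is near that of all genes, and their median log2 change was 0.01 against -0.0045 for all. The 10 members not tested were COL2A1, COL4A3, COL4A4, COL6A3, COL8A1, COL8A2, COL10A1, COL14A1, COL21A1 and COL23A1.

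The largest falls were of 3 genes that were high on day 6. COL6A6 was at 231 and 246 CPM in the day 6 controls, at 236 and 178 CPM with early FGF2, and at 0.150 to 0.811 CPM in the 4 day 12 libraries (log2 change -8.19, SE 0.23, edgeR adjusted p = 1.34e-13). Its neighbour PIK3R4 was at 27.7 to 31.3 CPM on day 6 and 37.6 to 42.9 CPM on day 12. COL5A1 was at 110.1 and 111 CPM in the day 6 controls, at 116 and 93.0 CPM with early FGF2 and at 0.689 to 1.06 CPM on day 12 (log2 change -7.28, SE 0.17, edgeR adjusted p = 2.83e-14). Its partner COL5A2 was at 4.14 to 6.19 CPM in all 8 libraries, so COL5A1 per kilobase went from 13.4 to 15.2 times COL5A2 on day 6 to 0.0781 to 0.147 times it on day 12. COL27A1 was at 28.3 to 32.3 CPM on day 6 and 0.231 to 0.683 CPM on day 12 (log2 change -5.99, SE 0.24). In none of the 3, picked as the largest falls, did the days overlap, and this was not counted over all genes. With doxycycline on day 5 of the other set COL6A6, COL5A1 and COL27A1 were at 0.290, 22.6 and 12.2 CPM, and NEUROG2 at 1564 CPM against 7544 to 7831 CPM on day 6.

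COL26A1 fell from 203 and 204 CPM to 57.2 and 62.5 CPM (log2 change -1.77, SE 0.085, edgeR adjusted p = 6.54e-11) and was second to COL6A1 per kilobase on day 12. COL16A1 fell from 16.3 and 17.2 CPM to 0.446 and 0.427 CPM and COL4A5 from 8.64 and 5.84 CPM to 0.243 and 0.0854 CPM, with log2 changes of -5.25 and -5.40. COL1A1 fell from 12.4 and 10.3 CPM to 0.689 and 1.24 CPM and COL1A2 from 10.1 and 12.1 CPM to 4.14 and 4.01 CPM. COL9A1, COL9A3, COL4A6, COL20A1 and COL5A3, all at or under 4.51 CPM on day 6, fell with log2 changes from -4.72 to -1.61.

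Among the members that rose, COL11A1 went from 0.559 and 0.429 CPM to 13.8 and 11.1 CPM (log2 change 4.64, SE 0.26, edgeR adjusted p = 3.43e-10). The others stayed low. The 3 tested transmembrane collagens all rose: COL17A1 from 0.473 and 0.386 to 1.95 and 2.35 CPM, COL13A1 from 0.688 and 0.601 to 3.12 and 2.22 CPM, and COL25A1, a collagen made by neurons, from 0.344 and 0.386 to 1.58 and 2.01 CPM. COL3A1 had 0 counts in both day 6 controls and 1.14 and 1.02 CPM on day 12, at least 16.8-fold higher against a floor of 3 counts over the day 6 group. COL15A1 went from 1 count to 18 over the group (ratio 17.4, counting interval 2.75 to 726). COL11A2, COL18A1 and COL24A1 rose with log2 changes of 0.67, 0.42 and 1.65. COL18A1 lost its call in 6 other settings, DESeq2 and limma voom among them, COL24A1 in 3, and COL15A1 and COL5A3 in 2 each, among them without day 6 control replicate 1 and without day 12 control replicate 1.

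COL6A1, the leading member, was not called. It was at 266 and 287 CPM in the day 6 controls, at 288 and 299 CPM with early FGF2, at 312 and 282 CPM in the day 12 controls and at 310 and 285 CPM with late FGF2. The groups overlap, with a log2 change over time of 0.10 (SE 0.080, edgeR adjusted p = 0.266). COL4A2 was at 89.5 and 80.0 CPM in the day 6 controls and 86.8 and 76.4 CPM in the day 12 controls (log2 change -0.05, SE 0.096). COL4A1 was at 11.1 and 9.87 CPM and at 11.0 and 12.4 CPM, and COL7A1 at 13.1 and 17.7 CPM and at 11.5 and 11.9 CPM, with edgeR adjusted p of 0.408 and 0.0721. COL5A2, COL6A2, COL9A2, COL12A1, COL19A1, COL22A1 and COL28A1 were not called either.

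**Figure D5:**
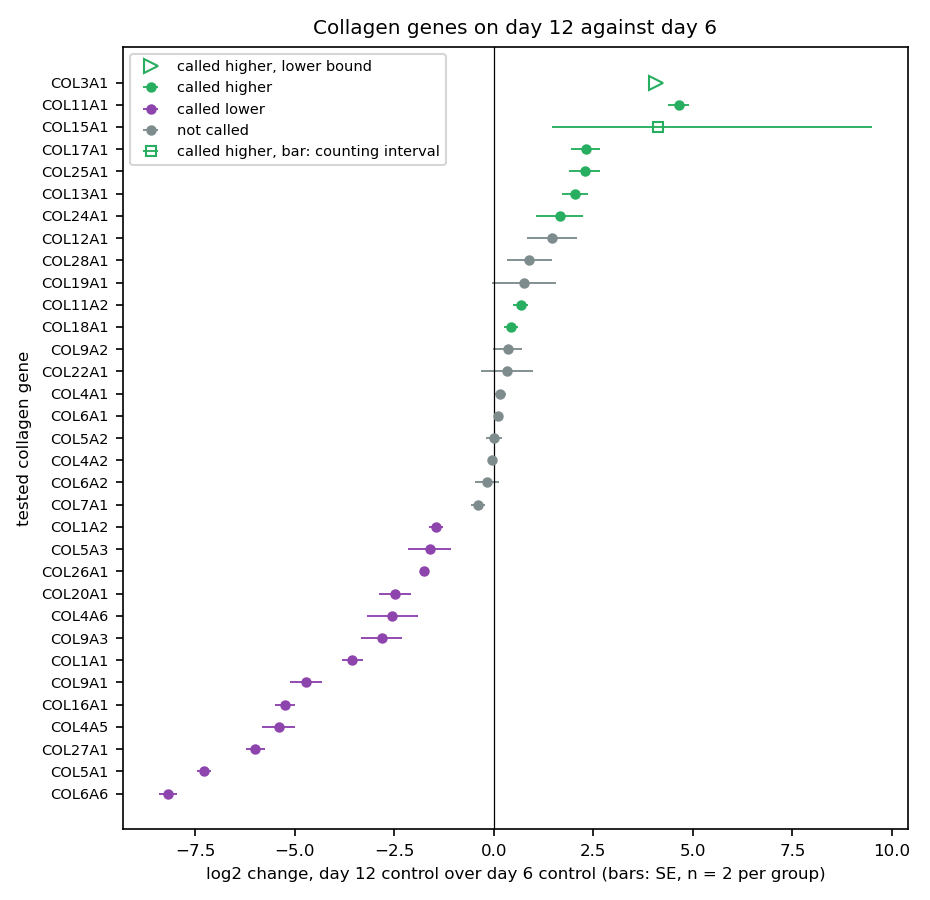
Log2 change from the day 6 to the day 12 control for the 33 tested members. Filled points have SE bars (n = 2 per group). COL3A1 is drawn at its lower bound and COL15A1 at its count ratio with a 95% counting interval. COL6A6 and COL5A1 lie furthest left, and COL6A1, COL4A2 and COL5A2 lie at 0.

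Markers moved over the same days, in which 31.7% of all genes rose and 32.3% fell. Of 8 neuron markers 6 rose and 1 fell, their sum going from 9063 and 9403 CPM to 20010 and 20000 CPM. Of 6 neural progenitor markers 4 fell and 2 rose, with sums of 1552 and 1549 CPM and then 871 and 932 CPM. Of 6 neural crest markers 3 fell and 3 rose (20.2 and 21.1 CPM, then 7.38 and 7.81 CPM), and of 3 pluripotency markers 2 fell and 1 rose (222 and 222 CPM, then 118 and 130.3 CPM). The 5 markers of dividing cells all fell, their sum from 451 and 380 CPM in the day 6 controls to 8.60 and 10.5 CPM on day 12. Of 7 tested mesenchyme and fibroblast markers 4 fell and 3 rose, with sums of 246 and 234 CPM and then 63.3 and 65.6 CPM, of which FBLN1 made up 211 and 197 CPM on day 6. DCN had 0 counts in all 4 day 6 libraries and at most 0.0427 CPM on day 12. All 3 tested endothelial markers fell, with sums of 11.9 and 11.5 CPM and then 1.22 and 1.54 CPM. Their part in the collagen changes was not tested.

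Late FGF2 was compared with the day 12 control, and early FGF2 with the day 6 control. With late FGF2 1 of 33 members rose and 0 fell, where 1.63% of all genes rose, 0.536% fell and 2.17% did either. It was COL17A1, at 1.95 and 2.35 CPM (48 and 55 counts) in the controls and at 5.69 and 4.52 CPM (152 and 137 counts) with FGF2 (log2 change 1.25, SE 0.24, edgeR adjusted p = 0.00933). The groups did not overlap, but the call rests on 2 libraries each. It was lost without day 12 control replicate 1 (edgeR adjusted p = 0.136), day 12 control replicate 2 (0.0612) or day 12 FGF2 replicate 1 (0.159), and held without day 12 FGF2 replicate 2 (0.0313). The authors' deposited table from limma gives COL17A1 a log2 change of 1.23 and an adjusted p of 0.00178, and the authors' deposited table from DESeq2 0.48, a p of 4.455e-05 and no adjusted p. Among the others COL4A1 was at 11.0 and 12.4 CPM without and 15.8 and 13.9 CPM with late FGF2 (log2 change 0.35, SE 0.15, edgeR adjusted p = 0.426), and COL9A1 had a log2 change of 1.58 (SE 0.58, adjusted p = 0.283) at levels of at most 0.593 CPM. Markers also differed between these groups. Of 8 neuron markers 2 rose, with sums of 20010 and 20000 CPM without and 22760 and 23360 CPM with late FGF2, and of 6 neural progenitor markers 2 fell, with sums of 871 and 932 CPM and then 1014 and 1095 CPM. The mesenchyme and fibroblast markers summed to 63.3 and 65.6 CPM without and to 84.7 and 80.6 CPM with late FGF2, and 1 of the 7 tested, THY1, rose (log2 change 0.51, edgeR adjusted p = 0.0378). Their part in the COL17A1 change was not tested. COL26A1 had a log2 change of -0.0066 (SE 0.085) and COL6A1 one of 0.00022 (SE 0.080).

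With early FGF2 edgeR called 0 of 33 members and 0 of all genes (0%), and 2 members had an unadjusted p under 0.05, COL28A1 and COL11A1. DESeq2 and limma voom also called 0 members. Without day 6 FGF2 replicate 1, 4 members were called. COL6A6 (log2 change -0.42, edgeR adjusted p = 0.00117), COL4A1 (-0.61, 0.0164) and COL5A1 (-0.25, 0.0349) were then lower and COL7A1 (0.44, 0.0461) higher, among 2523 genes called in all. The libraries of that group differ for these genes, as day 6 FGF2 replicate 1 and replicate 2 had COL6A6 at 236 and 178 CPM, COL5A1 at 116 and 93.0 CPM, COL4A1 at 9.64 and 6.85 CPM and COL7A1 at 13.6 and 20.9 CPM. The difference between the late and the early effect was called for 0 of 33 members, where 0.645% of all genes were positive calls, 0.0844% negative and 0.73% either, with 3 members at an unadjusted p under 0.05 and 0 called by DESeq2 or limma voom. That of COL17A1 was 0.83 (SE 0.52, edgeR adjusted p = 0.810). The smallest edgeR adjusted p was 0.354, and without day 6 FGF2 replicate 1 COL4A1 and COL7A1 were called.

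Other genes of the pathway were read from lists chosen by function. A gene of these lists that reached 10 CPM in only 1 of the 2 libraries compared had its direction fixed by that limit. Of the enzymes that modify and fold collagen chains, 7 of 17 at 10 CPM or more were at least 4-fold lower with doxycycline on day 5 and 6 of 18 on day 11, and 0 higher, where 11.5% and 9.85% of all genes were lower. Their median log2 ratio was -1.70 on day 5 and -1.43 on day 11. Of these genes 14 reached 10 CPM in the day 5 or day 11 library with doxycycline, and any other was fixed as lower. SERPINH1, the collagen chaperone HSP47, was at 534, 771 and 421 CPM without and at 24.0 and 12.5 CPM with doxycycline. FKBP10, a prolyl isomerase, was at 198, 265 and 231 CPM and then at 11.3 and 6.06 CPM, and P4HA1, a prolyl hydroxylase chain, at 163, 92.1 and 196 CPM and then at 5.20 and 6.58 CPM. P4HB, its partner with other roles in folding, was at 360.2, 334 and 293 CPM and at 186 and 122 CPM. From day 6 to day 12, 14 of 18 tested members of the list fell and 3 rose, where 32.3% of all genes fell and 31.7% rose. SERPINH1 fell from 58.0 and 46.6 to 3.04 and 4.44 CPM (log2 change -3.81), and PLOD1, PLOD2 and FKBP10 fell with log2 changes of -2.70, -2.93 and -2.04. The 3 that rose were P3H2, P3H4 and P4HA1, named for their direction after their values were seen, like the other genes below given as those that rose.

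Genes of propeptide removal and crosslinking went both ways. With doxycycline 3 of 8 on day 5 and 1 of 6 on day 11 were at least 4-fold lower and 1 and 0 higher. Only 4 reached 10 CPM in the day 5 or day 11 library with doxycycline, and any other was fixed as lower. Of all genes 11.5% and 9.85% were lower and 12.6% and 11.5% higher. LOXL1, a lysyl oxidase that crosslinks matrix, was at 22.5, 26.5 and 50.3 CPM without and at 118 and 18.4 CPM with doxycycline, and LOXL2 at 83.3, 119 and 54.7 CPM and then at 26.0 and 4.82 CPM. BMP1, which removes C propeptides, was at 6.74, 9.07 and 14.3 CPM and at 37.2 and 11.1 CPM, and PCOLCE, its enhancer, at 27.1, 71.9 and 11.1 CPM and at 4.91 and 4.79 CPM. From day 6 to day 12, 8 of 12 tested members fell and 2 rose, where 32.3% of all genes fell and 31.7% rose. Those that rose were TLL1 and TLL2, both at most at 0.608 CPM in the controls. LOXL1 fell from 369 and 356 to 17.8 and 18.0 CPM (log2 change -4.34, edgeR adjusted p = 5.01e-15), BMP1 from 106 and 106 to 8.88 and 8.32 CPM, LOXL2 from 99.96 and 114 to 3.20 and 3.33 CPM and LOXL3 from 39.5 and 38.5 to 3.36 and 3.33 CPM.

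Of the basement membrane partners of collagen IV 8 of 10 on day 5 and 9 of 10 on day 11 were at least 4-fold lower, with 0 higher. Only 6 of the 10 reached 10 CPM in the day 5 or day 11 library with doxycycline, and any other was fixed as lower. Of all genes 11.5% and 9.85% were lower and 12.6% and 11.5% higher. LAMA5 was at 167, 873 and 178 CPM without and at 84.7 and 31.6 CPM with doxycycline, SPARC, a collagen-binding protein, at 385, 684 and 243 CPM and then at 94.2 and 22.9 CPM, and LAMC1 at 244, 344 and 327 CPM and then at 75.8 and 36.5 CPM. AGRN, the organiser of nerve and muscle contacts, was at 239, 774 and 268 CPM and at 667 and 372 CPM. From day 6 to day 12 all 10 fell, where 32.3% of all genes did. SPARC fell from 873 and 853 to 19.6 and 20.4 CPM (log2 change -5.43, edgeR adjusted p = 1.16e-15). LAMB1 and LAMA5 fell with log2 changes of -3.62 and -2.42 and AGRN with one of -1.60. With late FGF2 1 of 10 rose, LAMB1 (log2 change 0.43, edgeR adjusted p = 0.0345), where 1.63% of all genes rose.

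Collagen receptors and degrading enzymes moved less uniformly. Of the receptors 2 of 6 were at least 4-fold lower and 1 higher on day 5 and 1 of 5 lower and 1 higher on day 11. Only 3 reached 10 CPM in the day 5 or day 11 library with doxycycline, and any other was fixed as lower. Of all genes 11.5% and 9.85% were lower and 12.6% and 11.5% higher on these days. The higher receptor gene was ADGRG1, which binds COL3A1 in the developing brain, at 6.46, 4.49 and 37.7 CPM without and 289 and 159 CPM with doxycycline. On day 5 it passed 10 CPM through the library with doxycycline alone, which fixed it as higher. ITGB1, the common integrin beta chain, was at 483, 311 and 346 CPM and at 337 and 229 CPM, and DDR1, a receptor kinase, at 311, 345 and 284 CPM and at 96.6 and 78.4 CPM. MRC2, which takes up collagen, was at 34.4, 69.1 and 127 CPM and at 7.93 and 4.45 CPM. From day 6 to day 12, 5 of 9 tested receptors fell and 2, ADGRG1 and ITGA2, rose, where 32.3% of all genes fell and 31.7% rose. MRC2 fell from 37.9 and 29.7 to 0.852 and 0.427 CPM and DDR1, ITGB1 and DDR2 with log2 changes of -1.46, -1.01 and -1.99. With late FGF2 1 of 9 rose, ITGB1, from 135 and 127 to 198 and 205 CPM (log2 change 0.62, SE 0.075, edgeR adjusted p = 0.000152). Of 4 degrading enzymes at 10 CPM or more 0 on day 5 and 1 on day 11, MMP14, were at least 4-fold lower and 0 higher. MMP15 was at 97.9, 199 and 50.2 CPM without and at 172 and 150.1 CPM with doxycycline. Over time MMP14, a membrane-bound collagenase, fell from 52.2 and 56.5 to 0.689 and 1.32 CPM, MMP2 fell and MMP16 rose (2 and 1 of 5 tested). With late FGF2 1 of 5 rose, MMP2 (log2 change 0.61, edgeR adjusted p = 0.0394), where 1.63% of all genes rose.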

How the data were processed

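RNA of 13 cultures was sequenced as single-end reads of polyadenylated RNA. The authors deposited counts per gene. The submitters' processing notes name featureCounts 1.5.0 and the build GRCh38, and the annotation release and the use of strand are not given in the sources used here. The authors also deposited normalized values (a signal with no stated unit, used here only as an alternative scaling) and, from limma and DESeq2, their own log2 changes and p-values. Per the labels, the libraries of a group in the FGF2 set carry the numbers 1 and 2. The deviations of same-numbered libraries correlated at 0.0042 to 0.098, so the numbers were not taken as pairs.

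Counts were scaled by TMM. In the FGF2 set, edgeR 4.0.16 (R 4.3.3) fitted all 8 libraries by group with its quasi-likelihood test on the 20142 genes kept by filterByExpr, with Benjamini-Hochberg adjustment over all of them and calls at 0.05. It was tested on simulated data. The doxycycline set has 1 library a group and no test: genes at 10 CPM or more in either library counted as different at 4-fold, with 1 CPM added to both, and 95% exact binomial intervals cover counting error only. Levels per kilobase used the merged exons of GENCODE gene models, and promoters came from RefSeq. Python 3.11.15, pandas 2.3.3 and SciPy 1.17.1 were used, with limma 3.58.1 and DESeq2 1.42.0 as alternatives, and other fold limits, added CPM, scalings, filters and left-out libraries were tried.

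Members at 20 CPM or more in a group are named with all values, and those at 5 to 20 CPM with their highest level. For each pathway list, the 4 genes highest in the doxycycline set and the 4 with the smallest p over time are named, with any called under FGF2. The members and lists were chosen with earlier results of these data known.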

Additional observations from a re-analysis of the deposited data

Results flagged for a closer look

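The doxycycline ratios of 2 collagen genes had opposite directions on the 2 days, with 1 library in each group, and the difference was not tested. COL11A2 was lower with doxycycline on day 5 (log2 ratio -0.99) and higher on day 11 (2.055). It passed 10 CPM through the control alone on day 5 and through the library with doxycycline alone on day 11. Both of its directions were therefore fixed by that limit. For COL7A1 the day 5 value was -0.51 and the day 11 value 1.575 (log2).

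Among the pathway genes, the effect of late FGF2 on ITGB1 differed from that of early FGF2 by 0.74 on the log2 scale (SE 0.11, edgeR interaction adjusted p = 0.00192).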

How the results depend on the processing

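Counts of called members under the settings tried lay within 1.5 times the reported one for doxycycline on day 5 (15 to 26, reported 19), doxycycline on day 11 (14 to 22, reported 20) and day 12 against day 6 (18 to 23, reported 22, and 19 to 22 with 1 library left out). In the 3 small comparisons of single libraries the counts moved. For the day 5 control against day 0, a 2-fold limit gave 13 members in place of 2. For the day 11 control against day 0, it gave 10 in place of 4, and 5 CPM added gave 2. For day 11 against day 5 with doxycycline, the authors' deposited normalized values and 5 CPM added each gave 0, 0.1 CPM added gave 2 and a 2-fold limit 4, in place of 1. With 1 library left out, the members called ranged from 0 to 1 for late FGF2, 0 to 4 for early FGF2 and 0 to 2 for their difference. The value of 4 for early FGF2 and that of 2 for the difference came without day 6 FGF2 replicate 1. For early FGF2, COL5A1 had a log2 change of -0.25 without day 6 FGF2 replicate 1 and 0.070 without replicate 2. COL7A1 had 0.44 without day 6 FGF2 replicate 1, -0.18 without replicate 2 and -0.04 without day 6 control replicate 1. The cause was not tested.

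Over all genes, late FGF2 called 437, against 656 without a filter, 1338 in a fit of its 4 libraries, and 184 to 219 with 1 of its libraries left out. The difference of effects called 147, against 268 without a filter and 78 to 1345 with 1 library left out, and early FGF2 0, against 2523 without day 6 FGF2 replicate 1. Library totals in place of TMM gave all genes a median log2 doxycycline ratio of 0.06 in place of 0.23 (day 5) and -0.18 in place of 0.16 (day 11) and moved the higher share of calls on day 11 from 53.9% to 42.5%, where members were then 1 higher and 19 lower.

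With the replicate number as a block, 1 member was called for late FGF2, 0 for early FGF2, 0 for their difference and 23 for day 12 against day 6, and 598 genes in all for late FGF2. The 2 libraries a group limit which changes could be called, and the doxycycline set has no replicates.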
